A study of Mus musculus with 16 samples.

Results

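The endoderm regulator genes described here are 9 genes chosen by name: Gata4, Gata6, Sox17, Sox7, Foxa1, Foxa2, Hnf4a, Hhex and Cxcr4, out of 26180 mouse genes with a curated RefSeq transcript. For each gene, the called peaks of 6 ChIP-seq lists were read within 2500 bp on either side of every annotated transcription start site (TSS) and over the gene body. The lists give H3K4me3, H3K27me3 and Suz12 in LIF-ESCs and in Myc-ESCs, 1 list for each culture and antibody. A gene was called marked when at least 1 bp of a peak lay in the window of 5001 bp around a TSS.

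The samples were 16 libraries of R1 mouse embryonic stem cells (ESCs), 2 for each culture and antibody and 4 inputs. LIF-ESCs were kept with 100 units per ml of LIF, and Myc-ESCs with 50 nM 4-hydroxytamoxifen (OHT) and no LIF. Both cultures were feeder-free, on gelatin, with serum and vitamin C. The study used R1 cells that carry MycT58A-ER, a stabilised Myc mutant (T58A) fused to a hormone-binding domain and switched on by OHT, and the sources used here do not give which clone the libraries came from. LIF withdrawal and MycER activation therefore changed together, and their parts in any difference cannot be told apart. The comparison addresses which chromatin state developmental regulators have when ESCs self-renew on Myc in place of LIF. No list was given per library, and the lists hold no read counts. Depth is unknown, no value has a replicate error, and no test was run.

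H3K4me3 is the histone mark found at the start sites of most active and many poised genes. H3K27me3 is laid down by Polycomb repressive complex 2 (PRC2), of which Suz12 is a core subunit, and regions that carry both marks are called bivalent. In ESCs, many regulators of lineages not yet chosen are bivalent. The genes studied act in the primitive endoderm, which forms beside the early epiblast, in the definitive endoderm made at gastrulation, or in both.

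Suz12 and H3K4me3 were present at 8 of the 9 start regions in both cultures, and Hnf4a stood apart in having neither Suz12 nor H3K27me3. H3K27me3 was called at 3 of the 9 genes in LIF-ESCs, namely Gata4, Sox17 and Foxa2, and at 8 of the 9 in Myc-ESCs. The shares of all genes were 3.82% and 10.7%. Gata6, Sox7, Foxa1, Hhex and Cxcr4 had an H3K27me3 peak in Myc-ESCs only. Hhex also had far more of its start region under Suz12 peaks in Myc-ESCs, 3673 bp against 190 bp. These differences hang in part on the length of the lists, since the H3K27me3 list of LIF-ESCs has 3120 peaks and that of Myc-ESCs 16717. With both lists limited to equal numbers of their highest-scoring peaks, 2 genes (Sox7 and Hhex) and not 5 had H3K27me3 in Myc-ESCs only. The share of all genes was then 1.75%.

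**Figure D1:**
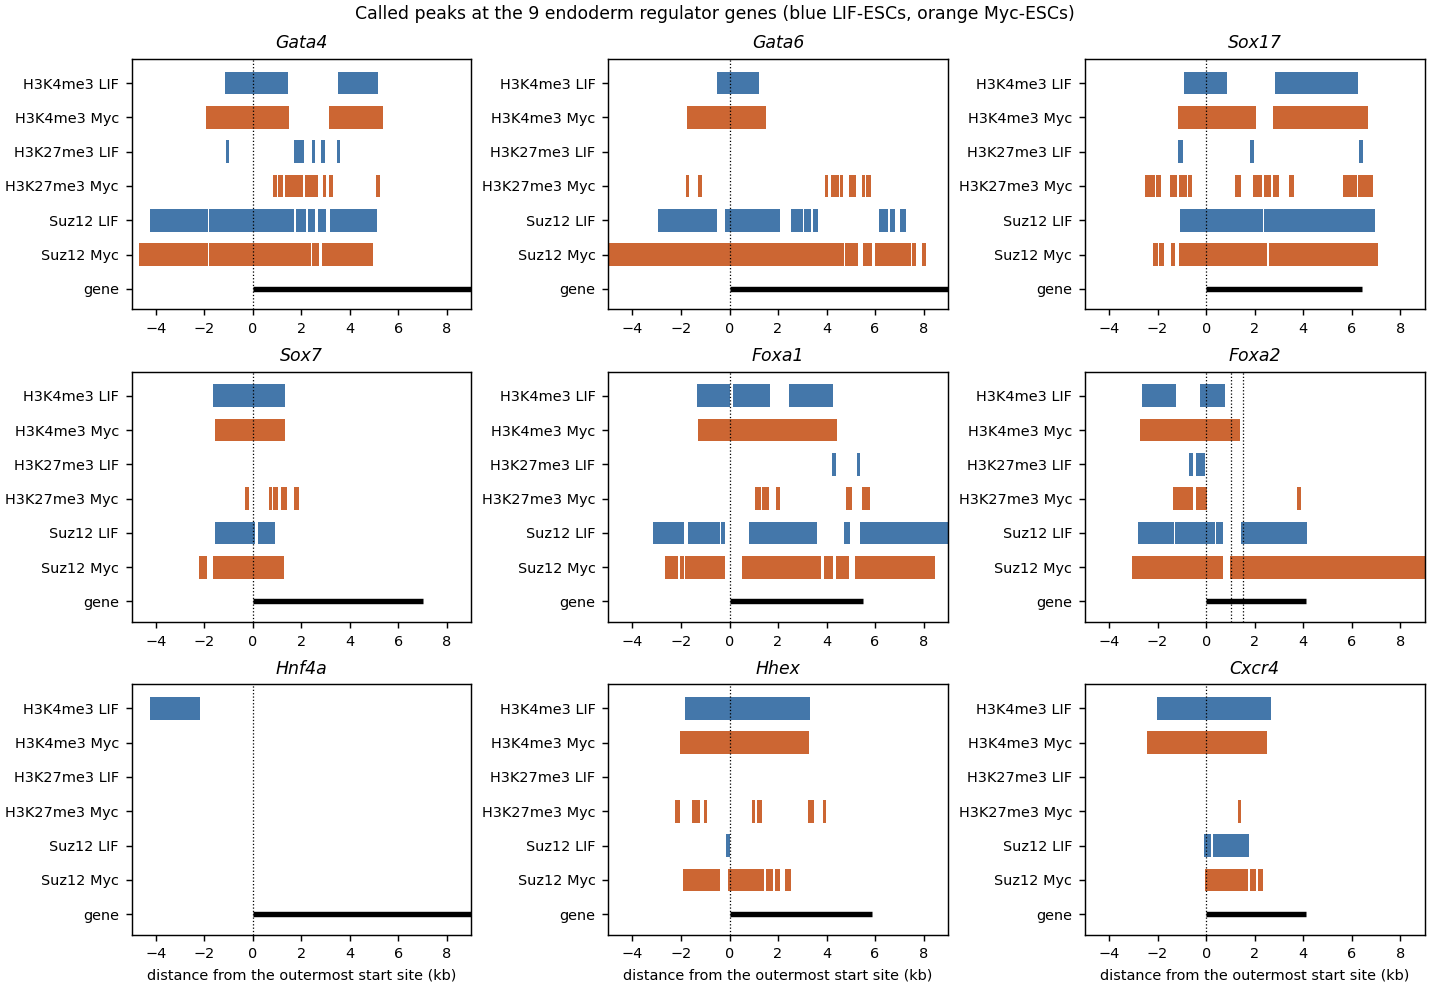
Called peaks at the 9 genes, drawn by distance in kb from the outermost TSS with transcription to the right. Each bar is 1 peak of a list, blue for LIF-ESCs and orange for Myc-ESCs, dotted lines are start sites, and the black bar is the gene. The view ends 9 kb downstream, so the second start site of Hnf4a and the Myc-ESC H3K4me3 peak in its first intron lie outside it, and longer peaks are cut at its edges.

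The bases just upstream of the TSS are shown for genes that differ in these marks. RefSeq promoter sequences on GRCm38.p6 were at hand for 5 of the 9 genes, at 8 start sites: Foxa1, Foxa2, Hnf4a, Hhex and Cxcr4. Each line below holds the 250 bases before a start site, 5′ to 3′ on the strand of the gene, with CpG dinucleotides in capitals. Foxa2 is shown for the outermost of its 3 start sites, where all 3 marks met, Hhex for its large difference in Suz12, Foxa1 and Cxcr4 as other marked genes, and Hnf4a at both start sites as the gene without Suz12 and H3K27me3.
Foxa2, chr2:148046970-148047219, minus strand: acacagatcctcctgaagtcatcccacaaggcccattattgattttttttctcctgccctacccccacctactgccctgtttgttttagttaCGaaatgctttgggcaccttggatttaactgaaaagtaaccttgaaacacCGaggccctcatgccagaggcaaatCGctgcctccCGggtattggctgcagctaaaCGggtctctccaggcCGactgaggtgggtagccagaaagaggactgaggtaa
Foxa1, chr12:57546112-57546361, minus strand: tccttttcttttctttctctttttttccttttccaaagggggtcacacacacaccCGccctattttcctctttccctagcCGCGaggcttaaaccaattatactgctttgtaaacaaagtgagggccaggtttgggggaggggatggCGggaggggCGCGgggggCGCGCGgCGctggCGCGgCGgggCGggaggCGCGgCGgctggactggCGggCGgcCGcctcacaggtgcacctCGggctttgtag
Hhex, chr19:37434591-37434840, plus strand: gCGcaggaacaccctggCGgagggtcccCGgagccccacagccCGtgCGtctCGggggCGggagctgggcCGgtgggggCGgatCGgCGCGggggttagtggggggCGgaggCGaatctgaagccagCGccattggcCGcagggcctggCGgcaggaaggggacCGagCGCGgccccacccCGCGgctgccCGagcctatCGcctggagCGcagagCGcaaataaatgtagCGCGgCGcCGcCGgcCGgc
Cxcr4, chr1:128592300-128592549, minus strand: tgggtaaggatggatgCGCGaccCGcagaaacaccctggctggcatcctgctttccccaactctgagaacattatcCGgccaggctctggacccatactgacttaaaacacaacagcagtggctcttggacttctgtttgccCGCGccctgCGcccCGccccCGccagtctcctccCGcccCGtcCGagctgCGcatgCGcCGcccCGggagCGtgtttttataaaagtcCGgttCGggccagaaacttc
Hnf4a, upstream start, chr2:163506607-163506856, plus strand: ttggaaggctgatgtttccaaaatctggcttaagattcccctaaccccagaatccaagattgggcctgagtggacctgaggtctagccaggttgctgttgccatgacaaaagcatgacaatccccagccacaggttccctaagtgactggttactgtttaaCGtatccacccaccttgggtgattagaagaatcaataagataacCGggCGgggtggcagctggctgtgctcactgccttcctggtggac
Hnf4a, downstream start, chr2:163546905-163547154, plus strand: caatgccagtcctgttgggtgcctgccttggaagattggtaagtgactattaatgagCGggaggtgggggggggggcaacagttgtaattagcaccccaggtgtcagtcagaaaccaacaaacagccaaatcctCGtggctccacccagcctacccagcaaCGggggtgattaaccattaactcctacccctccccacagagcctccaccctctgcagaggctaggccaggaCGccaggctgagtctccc

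The capitals are sparse in Hnf4a, with 3 and 4 CpGs in the 250 bases, and dense in Hhex, with 32, and in Foxa1, with 21. Cxcr4 had 19. The Foxa2 stretch, which lay under all 3 marks, had 6 CpGs, nearer to Hnf4a than to the other marked genes. That holds for the outermost start site only, as the 250 bases before the inner ones had 20 and 13. Over the 300 bases from 250 before to 50 after a TSS, the observed to expected CpG ratio was 0.183 and 0.163 at the upstream and downstream start of Hnf4a. It was 0.929 at Foxa1, 0.878 at Hhex and 0.767 at Cxcr4. At Foxa2 it was 0.548, 0.767 and 0.680 from the outermost to the innermost start site. The median over 32851 RefSeq promoters was 0.384, and over the 3858 promoters of genes with Suz12 at a TSS in either culture it was 0.680, against 0.494 over 19449 promoters of genes without it. The 32851 also hold promoters that matched none of the 26180 genes, so both of these medians lie above that of all promoters. Against all 32851, Hnf4a lay in the lower part of the range, above 26.2% and 23.0%. The 6 other start sites lay above 61.0% to 89.4% of them. CACGTG, the E-box preferred by Myc with its partner Max, reads the same on both strands. It occurred in none of the 8 windows of 300 bases, and in 7.15% of all promoters of that length. For genes with and without Suz12 the share was 7.98% and 7.94%.

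**Figure D2:**
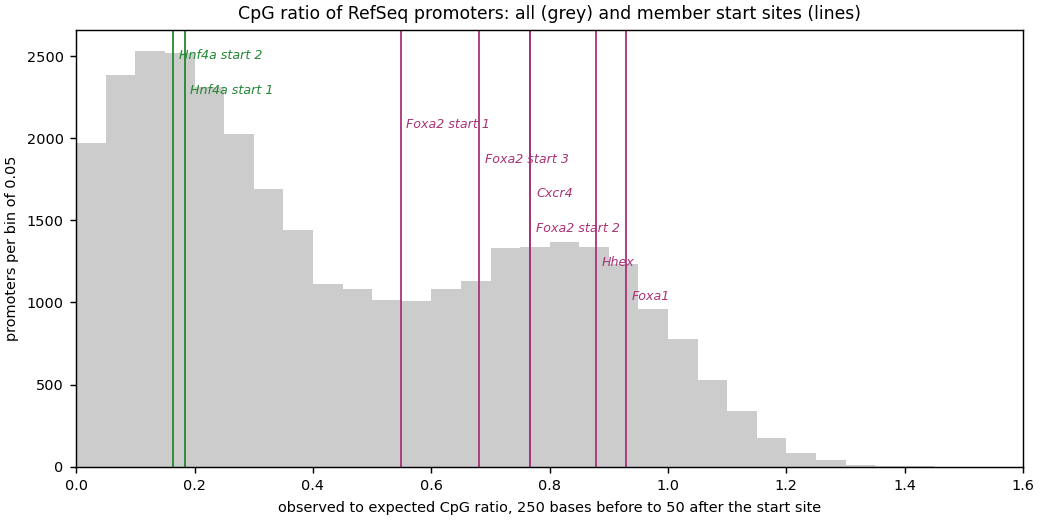
Observed to expected CpG ratio in the 300 bases around a start site. Grey bars count all RefSeq promoters in bins of 0.05, purple lines mark the start sites of Foxa1, Foxa2, Hhex and Cxcr4, and green lines mark Hnf4a at 0.163 and 0.183. Foxa2 start 1 is its outermost start site, and the lines of Foxa2 start 2 and Cxcr4 coincide at 0.767.

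Set against all genes, Suz12 and H3K27me3 were frequent among the 9. Suz12 marked 8 of them in each culture, where 12.1% of all genes were marked in LIF-ESCs and 14.6% in Myc-ESCs. H3K27me3 marked 3 and 8, where the background was 3.82% and 10.7%. H3K4me3 marked 9 and 8, at a background of 62.2% and 63.3%. In LIF-ESCs all 3 marks were together at 3 genes, against 2.77% of all genes. In Myc-ESCs they were together at 8, against 8.87%.

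H3K27me3 was called in Myc-ESCs only at 5 of the 9 genes and at 7.65% of all genes. It was called in LIF-ESCs only at none of them and at 0.733% of all genes. The background was higher among genes in the same state. There were 1906 genes with H3K4me3 and Suz12 peaks in each culture but without H3K27me3 in LIF-ESCs. Of these, 64.2% had H3K27me3 in Myc-ESCs, and so did all 5 of the endoderm genes of that kind. With 5 genes, this does not set them apart from other genes in that state. Suz12 was called in only 1 culture at none of the 9, where the background was 3.82% for Myc-ESCs only and 1.28% for LIF-ESCs only. H3K4me3 was called in Myc-ESCs only at none (background 2.35%) and in LIF-ESCs only at Hnf4a (background 1.21%).

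The number of bases under peaks in the best-covered window of a gene gives a finer measure than presence. Where Suz12 was present in both cultures, it covered more bases in Myc-ESCs at 8 of 8 genes, and at 81.2% of all such genes. H3K27me3 covered more in Myc-ESCs at 3 of 3 genes, with a background of 89.0%. Both shares are near their background. H3K4me3 covered more at 7 of 8 genes, against 64.8%, with Sox7 as the exception. Other lists of regulators leaned the same way. H3K4me3 covered more and fewer bases in Myc-ESCs at 10 and 0 of 11 neural bHLH factors, and at 12 and 2 of 16 other endoderm transcription factors. Among 11 trophoblast regulators these counts were 9 and 1, and among 12 primitive streak and mesoderm regulators 7 and 4. The median difference for H3K4me3 was 877 bp over the 8 genes and 137.5 bp over all genes with the mark in both cultures. For Suz12 it was 620 bp and 484 bp, and for H3K27me3 849 bp over 3 genes and 548 bp over all.

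**Figure D3:**
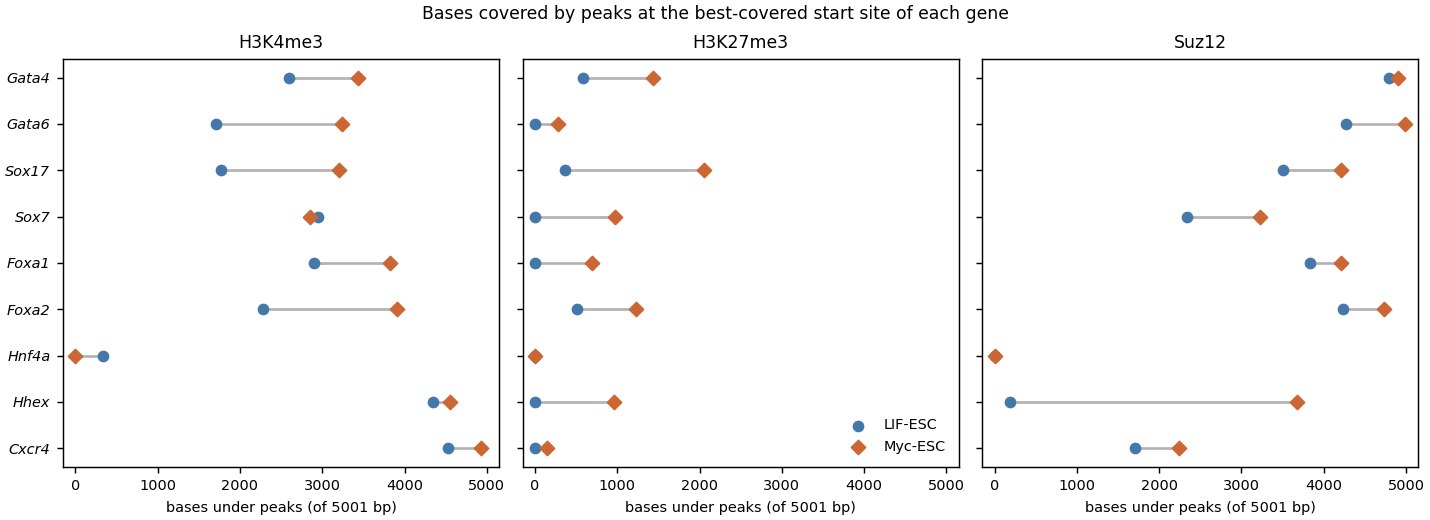
Bases under H3K4me3, H3K27me3 and Suz12 peaks in the best-covered window of 5001 bp of each gene, with LIF-ESCs as blue circles and Myc-ESCs as orange diamonds. H3K27me3 lies to the right in Myc-ESCs at 8 genes, Suz12 at 8, with Hhex the farthest apart, and H3K4me3 at 7. Each point is 1 list, so there are no error bars.

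Among genes that were marked, the endoderm regulators had broad Suz12 and H3K27me3. The median Suz12 cover was 3670.5 bp over the 8 marked endoderm genes in LIF-ESCs and 960 bp over all 3156 marked genes, and in Myc-ESCs it was 4211 bp and 1335 bp. For H3K27me3 it was 509 bp, over 3 genes only, against 163.5 bp in LIF-ESCs, and 967 bp over 8 genes against 349 bp in Myc-ESCs. For H3K4me3 the endoderm genes had less than the median of marked genes in LIF-ESCs, 2596 bp against 3333 bp, and slightly more in Myc-ESCs, 3627 bp against 3485 bp. Broad Suz12 was shared by other lists of regulators. With unmarked genes counted as 0, the median Suz12 cover was 3508 and 4206 bp (LIF-ESCs, then Myc-ESCs) over the 9 genes, 3299 and 4147 bp over 11 trophoblast regulators, 2743 and 3308.5 bp over 16 other endoderm transcription factors, and 2314 and 2954 bp over 11 neural bHLH factors. Counted in that way, the median H3K27me3 cover in Myc-ESCs was 960 bp over the 9 genes and 616 bp over the trophoblast regulators. It was 212 bp over the other endoderm transcription factors and 265 bp over the neural bHLH factors. In LIF-ESCs it was 0 bp in each of these lists.

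**Figure D4:**
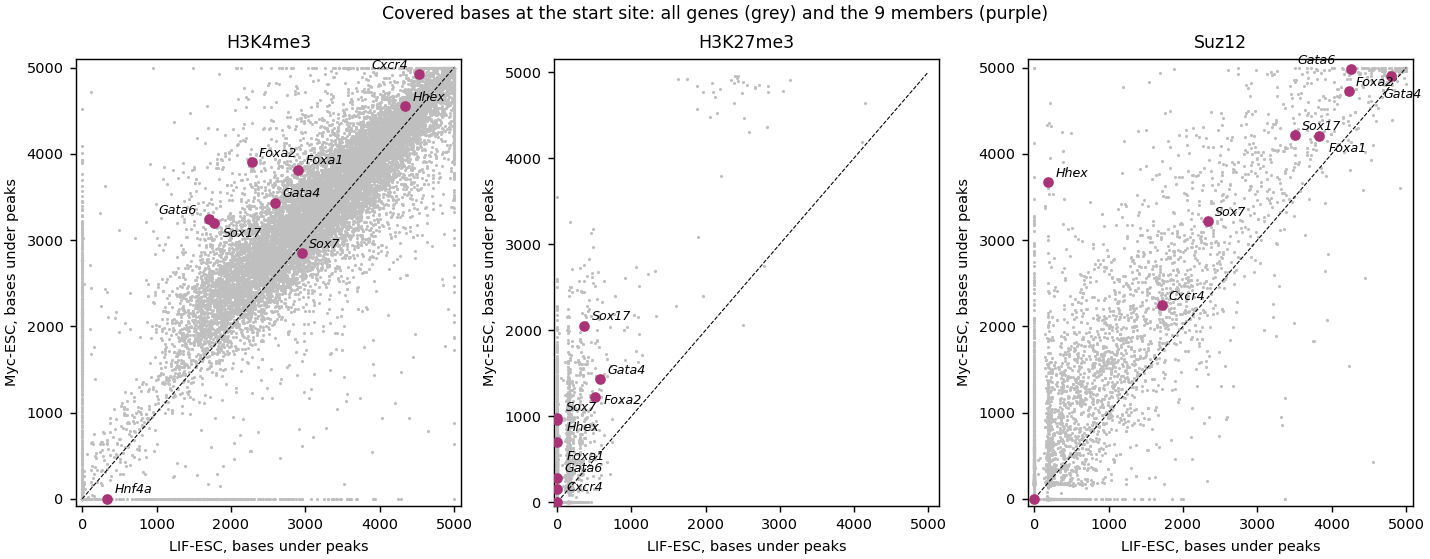
Bases under peaks in LIF-ESCs (x axis) and Myc-ESCs (y axis) for all 26180 genes in grey and the 9 endoderm regulator genes in purple, with the line of equal cover dashed. Hhex lies far above the line for Suz12, at 190 and 3673 bp, and Gata6, Sox17 and Foxa2 lie above it for H3K4me3. Hnf4a is at 0 in both cultures for H3K27me3 and Suz12.

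Gata4 and Gata6 are zinc-finger factors of the primitive endoderm, heart and gut, and Gata6 is needed to form the primitive endoderm. Gata4 lies at chr14:63198914-63245271 on the minus strand. Its H3K4me3 peak over the TSS was 2596 bp long in LIF-ESCs and reached farther upstream in Myc-ESCs, to 3435 bp. Suz12 filled nearly the whole window in both cultures, 4792 and 4899 bp of 5001, as 6 LIF-ESC peaks and 3 Myc-ESC peaks. H3K27me3 covered 582 and 1431 bp. All 1431 bp in Myc-ESCs lay in intron 1, and the single peak upstream of the TSS in LIF-ESCs, of 105 bp, had no counterpart. The strongest Myc-ESC peak there, 753 bp long, scored 285.19, above 97.2% of the list. A second H3K4me3 peak lay over exon 2, where translation begins, in both cultures.

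Gata6 lies at chr18:11052510-11085635 on the plus strand, and the antisense gene Gata6os starts 57 bp from its TSS, so that peaks there belong to both. Its H3K4me3 peak was 1704 bp long in LIF-ESCs, with a score above 15.0% of the list, and 3241 bp in Myc-ESCs, above 40.9%. Suz12 covered 4265 and 4982 bp. In Myc-ESCs that cover came from a pair of peaks of 4798 and 4902 bp on either side of a gap just upstream of the TSS. H3K27me3 was absent in LIF-ESCs, where the nearest peak was 589697 bp away. In Myc-ESCs it covered 284 bp in 2 peaks upstream, and 6 more peaks lay in intron 2, between 3923 and 5832 bp downstream of the TSS. The 2 upstream peaks scored 57.6 and 73.12, so the call at the start site of Gata6 was lost when peaks scoring below 100 were dropped, while 3 of the 6 peaks in intron 2 scored above it.

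Sox17 and Sox7 are related SRY-box factors, Sox17 of primitive and definitive endoderm and Sox7 of the parietal endoderm and blood vessels. At Sox17 (chr1:4490928-4497354, minus strand) H3K4me3 covered 1774 bp of the start region in LIF-ESCs against 3204 bp in Myc-ESCs, and Suz12 3508 and 4216 bp. H3K27me3 covered 368 bp in 2 peaks in LIF-ESCs and 2055 bp in 9 peaks in Myc-ESCs, the most of the 9 genes. Over the whole gene of 6427 bp, Suz12 covered 99.3% and 98.6%, H3K4me3 67.0% and 88.9%, and H3K27me3 4.65% and 32.9%. Its H3K4me3 peak over exons 2 to 4 scored higher than the one over the TSS in both cultures, 997.15 against 97.04 in LIF-ESCs and 1151.29 against 288.47 in Myc-ESCs.

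Sox7 (chr14:63943706-63950732, plus strand) was the gene with the least difference in H3K4me3, with 2950 bp (LIF-ESCs) and 2851 bp (Myc-ESCs). Suz12 covered 2339 bp in 3 peaks and 3220 bp, mainly in 1 peak of 2650 bp across the TSS. H3K27me3 was called in Myc-ESCs only, with 974 bp in 5 peaks, 1 of them 180 bp upstream of the TSS and 4 in intron 1. Of these, 2 scored above 100, and Sox7 kept its call in Myc-ESCs only with equal lists, at the score limit and in a window of 1000 bp on either side.

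Foxa1 and Foxa2 are forkhead pioneer factors that open chromatin in endoderm, and Foxa2 is needed for node, notochord and foregut. Both differed in the way their H3K4me3 was divided. At Foxa1 (chr12:57540628-57546111, minus strand), 3 peaks of 1372, 1497 and 1780 bp in LIF-ESCs stood where 1 peak of 5752 bp lay in Myc-ESCs. The cover of its start region was 2904 and 3819 bp. Suz12 covered 3833 and 4206 bp but left the TSS itself free, with the nearest peak 191 bp and 192 bp upstream. Foxa1 was the only gene of the 8 with Suz12 for which no Suz12 peak lay over a start site, in either culture. Of the 250 bases printed above, 60 and 59 were under Suz12. Within the gene, H3K27me3 in LIF-ESCs lay in exon 2, in 2 peaks of 155 and 154 bp over the 3′ end of the transcript. In Myc-ESCs 3 peaks with 697 bp lay in intron 1. There, 2 peaks of 323 and 224 bp also touched the 3′ end of exon 2, without overlapping those of LIF-ESCs. With a window of 5000 bp, Foxa1 therefore counted as marked in both cultures.

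At Foxa2 (chr2:148042877-148046969, minus strand), 2 H3K4me3 peaks of 1029 and 1382 bp in LIF-ESCs stood where 1 peak of 4116 bp lay in Myc-ESCs. The cover of the outermost start region was 2281 and 3907 bp. The LIF-ESC peak over the TSS scored 58.49, above only 5.12% of the list, and the Myc-ESC peak 243.83, above 41.1%. Suz12 in Myc-ESCs formed 1 peak of 9802 bp from intron 1 to beyond the 3′ end, the longest at any of the 9 genes, and covered 4729 bp of the start region against 4231 bp in LIF-ESCs. H3K27me3 covered 509 bp in LIF-ESCs, all upstream, and 1223 bp in Myc-ESCs. The stretch printed above was under all 3 marks. In Myc-ESCs each of them covered all 250 of its bases. In LIF-ESCs Suz12 covered 250, H3K4me3 249 and H3K27me3 199. The 3 start sites of Foxa2 shared most of these peaks. H3K4me3 cover in LIF-ESCs went from 2281 bp at the outermost to 1260 bp and 1029 bp at the inner ones, and in Myc-ESCs from 3907 to 2886 and 2402 bp.

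Hnf4a, a nuclear receptor of visceral endoderm and liver, has 2 start sites 40 kb apart on chr2:163506857-163572907, plus strand, used in different tissues. No Suz12 or H3K27me3 peak lay in either window or in the gene in either culture. The nearest Suz12 peaks were 130305 bp and 130205 bp from the upstream TSS. The only H3K4me3 in a window was 337 bp of a LIF-ESC peak that ended 2164 bp upstream of the first TSS and scored 99.3. Hnf4a thus counted as losing H3K4me3 without a peak over its start site. In Myc-ESCs a peak of 1800 bp lay in intron 1, 27342 bp downstream, with a score of 68.97 that was above 8.98% of the list. With a window of 1000 bp, or with the score limit of 100, Hnf4a was marked in neither culture.

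Hhex encodes a homeobox repressor of the anterior visceral endoderm, liver and thyroid. It lies at chr19:37434841-37440731 on the plus strand and had strong H3K4me3 in both cultures, 4343 and 4554 bp in single peaks of 5144 and 5333 bp. The score of that peak was 2536.07 in LIF-ESCs, above 83.4% of the list, and 1349.93 in Myc-ESCs, above 74.6%. Suz12 in LIF-ESCs was 1 peak of 190 bp across the TSS with a score of 56.44, above 6.78% of the list. It covered the last 153 of the 250 bases printed above. In Myc-ESCs there were 6 Suz12 peaks with 3673 bp, a 19.3-fold larger cover, and the highest scored 849.61, above 87.7%. By Suz12 cover Hhex was at rank 2876 of all genes in LIF-ESCs, but at rank 496 in Myc-ESCs. H3K27me3 appeared in Myc-ESCs only, with 960 bp in 5 peaks of the start region and 2 more in intron 3. The highest of the 7 scored 119.24, and the nearest LIF-ESC H3K27me3 peak was 439576 bp away. At the score limit of 100, Hhex counted as having both Suz12 and H3K27me3 in Myc-ESCs only. With equal lists its Suz12 was still present in both cultures.

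Cxcr4 is a chemokine receptor on the surface of definitive endoderm cells and many others, and the only member that is no transcription factor. At Cxcr4 (chr1:128588199-128592299, minus strand) H3K4me3 covered 4528 and 4923 bp, the most of the 9 genes, with scores of 3100 and 2569.58. Suz12 lay almost wholly downstream of the TSS, with 72 and 67 bp upstream and 1641 and 2178 bp downstream, for a cover of 1713 and 2245 bp. Its H3K27me3 rested on 1 peak in Myc-ESCs, 149 bp long, 1305 bp downstream of the TSS in intron 1. That peak scored 53.54, above 8.93% of the list, and was gone with equal lists, at the score limit and in the narrower window. Cxcr4 and Hhex, the genes with the widest H3K4me3, had the smallest Suz12 cover of the 8 in LIF-ESCs.

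The best H3K4me3 peak in the start-site windows of each gene was also placed by the percent of its own list that scored lower. This rank depends on how long each list is and what it holds, 32469 peaks for LIF-ESCs and 30345 for Myc-ESCs, so it describes the lists. It was at least 20 percentage points higher in Myc-ESCs at Gata6 (15.0 to 40.9), Sox17 (20.6 to 45.2) and Foxa2 (19.3 to 41.1), and 12.7 points higher at Foxa1. At Gata4 it went from 56.9 to 58.2, at Sox7 from 59.6 to 56.3, at Cxcr4 from 86.9 to 85.7 and at Hhex from 83.4 to 74.6. Outside the windows, the Sox17 peak over exons 2 to 4 ranked higher, at 69.3 in LIF-ESCs and 71.7 in Myc-ESCs. The median of Myc-ESC minus LIF-ESC values was 7.0 points over the 8 genes, 1.8 points over the 15958 genes with the mark in both cultures, and 2.7 points over the 2595 of these that also had Suz12 in both. For the other marks the median of the endoderm genes was below the background, and the reason was not tested. For H3K27me3 the median was 3.3 points over 3 genes and 15.9 over all genes with the mark in both cultures. For Suz12 it was 1.2 points over 8 genes and 3.9 over all. In LIF-ESCs the H3K27me3 rank was already 93.9 at Gata4 and 93.8 at Foxa2. The Suz12 rank there ran from 91.7 to 97.5 at all marked genes but Hhex (6.78). At Gata4 the best Suz12 score went from 1804.28 to a tied 3100, while its rank went from 96.5 to 96.1. Gata6, Sox17, Sox7, Foxa1 and Foxa2 had the same tied score and rank in Myc-ESCs. The Suz12 ranks therefore say little about a difference between the cultures. When peaks scoring below 100 were dropped, Gata6, Sox17 and Foxa2 had H3K4me3 at a start site in Myc-ESCs only, as did 2.63% of all genes. Their best LIF-ESC peaks in the windows scored 81.05, 97.04 and 93.01. Sox17 kept its LIF-ESC peak over exons 2 to 4, outside the window, which scored 997.15.

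The 3 marks were arranged alike at the start regions. H3K4me3 peaks lay over a TSS at all 8 genes with the mark in Myc-ESCs, and at 8 of 9 in LIF-ESCs. H3K27me3 peaks lay beside it: over a TSS at 0 of 3 marked genes in LIF-ESCs and at 1 of 8, Foxa2, in Myc-ESCs. Over all marked genes these shares were 2.60% and 3.84%, so the placement was general. Suz12 lay over a TSS at 7 of the 8 genes in each culture, against 39.5% and 48.9% of all genes with Suz12. Of the 33 Myc-ESC H3K27me3 peaks in the start regions, 14 were wholly upstream, 17 wholly in introns and 2 touched an exon. Their median length was 193 bp and the longest was 753 bp.

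Most H3K27me3 of the 9 genes lay within Suz12 peaks. Of the bases under H3K27me3 in the start regions, 89.4% were also under Suz12 in LIF-ESCs and 86.9% in Myc-ESCs, against 62.5% and 65.2% at the other genes with H3K27me3. Suz12 itself was wider at the 9 genes. In LIF-ESCs it filled 4792 of 5001 bp at Gata4, 3508 of 5001 bp at Sox17 and 5683 of 6506 bp at Foxa2. At the other genes it filled 1965125 of 5987725 bp. In Myc-ESCs it filled 33675 of 51515 bp at the 9 genes and 5560944 of 16669658 bp elsewhere. The higher shares therefore do not show a closer tie between the 2 marks. The part under H3K4me3 was 20.8% in LIF-ESCs, where it rests on Gata4, Sox17 and Foxa2 alone, and 63.3% in Myc-ESCs, against 34.6% and 50.2% elsewhere. In Myc-ESCs it ran from 35.6% at Gata4 and 38.8% at Sox17 to 100% at Foxa1 and Cxcr4.

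Within 10000 bp on either side of the outermost TSS, the 9 genes together had 15 LIF-ESC peaks of H3K27me3 with 2809 bp and 95 Myc-ESC peaks with 23532 bp. The whole lists differed in the same direction, with 3120 LIF-ESC peaks over 0.69 Mb and 16717 Myc-ESC peaks over 3.81 Mb. A contrast of this kind is therefore not particular to the 9 genes. The difference between the cultures was largest at Sox17, with 677 bp in LIF-ESCs against 5634 bp in Myc-ESCs, then at Foxa2, with 509 and 5148 bp, and at Gata4, with 939 and 5364 bp. Suz12 covered 55257 bp in 52 LIF-ESC peaks and 70579 bp in 49 Myc-ESC peaks. Gata6 had the largest difference in Suz12 at this scale, 8299 and 12423 bp.

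Over the gene bodies, H3K4me3 was called at 8 genes in the LIF-ESC list and 9 in the Myc-ESC list (background 64.2% and 65.3%), H3K27me3 at 3 and 8 (3.79% and 10.7%) and Suz12 at 8 and 8 (12.0% and 14.6%). The 3 genes with H3K27me3 over the body in LIF-ESCs were Gata4, Sox17 and Foxa1. Foxa2 had it only upstream there. The share of the gene under Suz12 differed most at Hhex, 0.628% and 37.0%, then at Foxa1, 57.5% and 81.4%.

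For each member, the gene whose 6 cover values lay closest was named, by the Euclidean distance between the covered fractions over the 6 lists. These were Foxc2 for Gata4, 4930412O13Rik for Gata6, Gm14424 for Sox17, Sdk2 for Sox7, Mab21l1 for Foxa1, Wnt7b for Foxa2, Fam166a for Hnf4a, C630043F03Rik for Hhex and Hivep2 for Cxcr4. The distances ran from 0.0062 for Hnf4a to 0.137 for Sox17. C630043F03Rik resembled Hhex in its Suz12 cover, which was 0 bp in LIF-ESCs against 3219 bp in Myc-ESCs.

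Other gene lists give the setting, with no test. Of 16 other endoderm transcription factors, H3K27me3 marked 4 in LIF-ESCs against 9 in Myc-ESCs, and Suz12 12 and 13. The 5 with H3K27me3 in Myc-ESCs only were Lhx1 with 1458 bp, Eomes with 616 bp, Pdx1 with 422 bp, Sox18 with 341 bp and Cebpa with 302 bp. Nr5a2 had 503 bp of Suz12 there only. Of 12 endoderm signals and surface proteins, 1 and 2 had H3K27me3 and 2 and 4 had Suz12. Kit (1211 bp) and Lefty1 (633 bp) had Suz12 in Myc-ESCs only, and Cxcl12, the ligand of Cxcr4, had H3K27me3 there only (222 bp). Of 21 endoderm effector and structural genes, 1 and 3 had H3K27me3 and 10 and 9 had Suz12. Among them the collagen genes Col4a1 and Col4a2, which share a divergent promoter, had 559 bp of H3K27me3 in Myc-ESCs only, and Lamb1 (1451 bp) and Krt18 (754 bp) had Suz12 in LIF-ESCs only.

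Regulators of other lineages were counted in the same way. H3K27me3 was present (LIF-ESCs, then Myc-ESCs) at 3 and 7 of 12 primitive streak and mesoderm regulators, 4 and 8 of 11 trophoblast regulators, and 4 and 8 of 11 neural bHLH factors. Suz12 was present at 9 and 10, 10 and 10, and 10 and 10 of them. The largest H3K27me3 cover in Myc-ESCs only was 1356 bp at Gata3 and 746 bp at Tead4 among trophoblast regulators, 955 bp at Kdr among mesoderm regulators, and 737 bp at Neurog1 among neural factors. Neurog3 went the other way, with 270 bp in LIF-ESCs only.

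All 10 markers of ESC identity had H3K4me3 in both cultures. It covered fewer bases in Myc-ESCs at 7 of them, more at 1 and as many at 2, and the median cover was 5001 bp in LIF-ESCs against 4205 bp in Myc-ESCs. Suz12 marked 1 of these 10 in LIF-ESCs and 2 with Myc, where Klf4 had 3264 bp, and 0 and 2 had H3K27me3, with 691 bp at Esrrb and 148 bp at Tfcp2l1. Of 8 fibroblast markers, 4 had H3K4me3 in the LIF-ESC list, 6 in the Myc-ESC list, 2 and 4 had Suz12, and 1 and 2 had H3K27me3. H3K4me3 covered more bases in Myc-ESCs at 6 of the 8, the other 2 had no peak in either culture, and the median was 549 and 2378 bp. The part of other cell types in the values of the 9 genes was not tested.

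**Figure D5:**
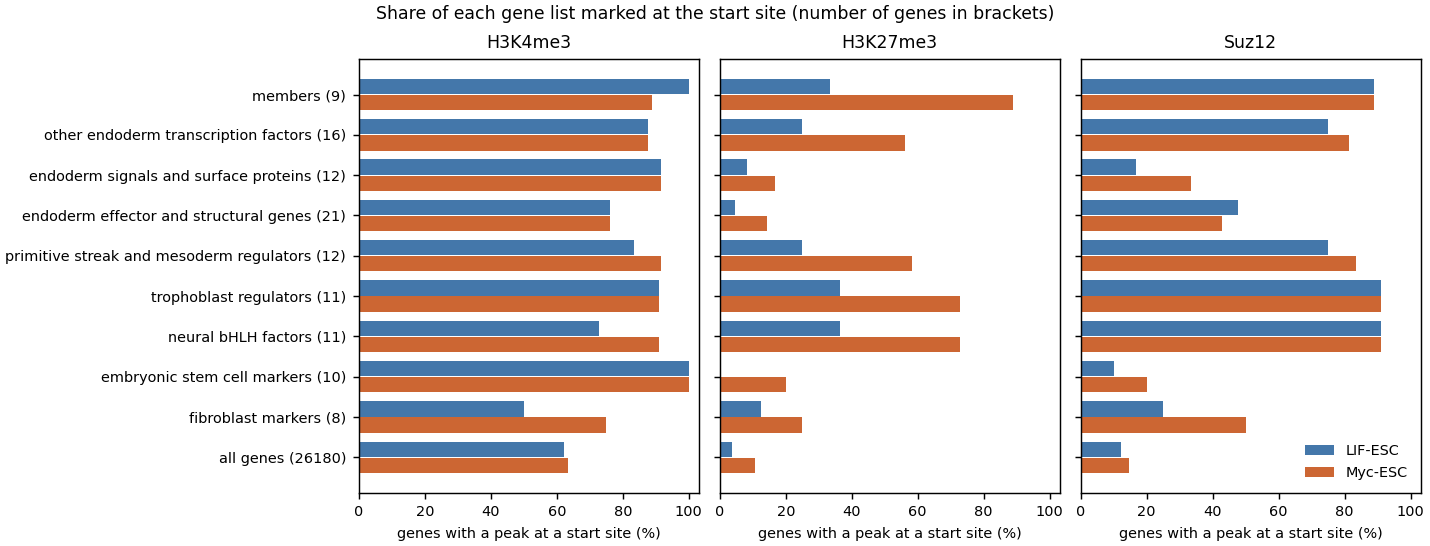
Percent of the genes of each list with a peak of H3K4me3, H3K27me3 or Suz12 at a start site, blue for LIF-ESCs and orange for Myc-ESCs, with the number of genes in brackets. The 9 endoderm regulator genes (members) are at the top and all 26180 genes at the bottom. For H3K27me3 the orange bar is longer in every list.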

How the data were processed

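ChIP-seq was run for Suz12, H3K4me3 and H3K27me3. Reads were aligned to GRCm38 with Bowtie2 2.2.3, unique best matches were kept, and peaks were called with MACS 1.4.2 at default settings. The authors deposited 6 peak lists, each peak with its position and a score, the caller's p-value on a log scale from 50 upward. Scores grow with depth and enrichment and were used only to rank or limit peaks within a list. Many of the highest scores stood at 3100, so ranks at the top are tied. Both libraries of a group name the same list, and pooling is not stated.

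Start sites and bodies came from 45756 curated RefSeq transcripts (GRCm38.p6), and coordinates count from 1. A gene took the largest cover over its start-site windows. Python 3.11.15, pandas 2.3.3, numpy 2.4.6 and matplotlib 3.10.9 were used, and interval code was checked on simulated data. 

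The 9 genes and the 8 other lists (endoderm factors, signals, effectors, mesoderm, trophoblast, neural bHLH, ESC and fibroblast markers) were chosen with earlier results of these data known. Named were all members, the most similar gene of each, and from other lists up to 4 genes per list with the largest change in cover among those with H3K27me3 or Suz12 in 1 culture only. Sox18 and Cebpa fall outside that rule and were named after their values were seen. The alternatives tried were a minimum score of 100, lists of equal length, windows of 1000 and 5000 bp, at least 100 bp under peaks, the outermost start site, and bodies without the 2500 bp after a start site. Predicted transcripts were added after seeing the data.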

Additional observations from a re-analysis of the deposited data

How the results depend on the processing

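Of 84 alternative values for the counts of marked genes and of genes marked in 1 culture only, 73 stayed within 1.5 times the reported count. When peaks scoring below 100 were dropped, H3K4me3 was present at 5 genes in LIF-ESCs and H3K27me3 at 5 in Myc-ESCs. Then 3 genes had H3K4me3 in Myc-ESCs only (Gata6, Sox17, Foxa2), 0 in LIF-ESCs only, 3 had H3K27me3 in Myc-ESCs only (Sox17, Sox7, Hhex) and 1 had Suz12 in Myc-ESCs only (Hhex). Over all genes those shares were 2.63%, 1.22%, 3.34% and 3.70%. With lists of equal length, 5 genes had H3K27me3 in Myc-ESCs and 2 had it there only, while over all genes 1.75% had it in Myc-ESCs only and 2.04% had it only with LIF. With windows of 1000 bp, those counts were also 5 and 2, and 0 genes had H3K4me3 in LIF-ESCs only. Sox7 and Hhex had H3K27me3 in Myc-ESCs only under each of these alternatives and in the reported lists. Adding predicted transcripts, chosen after seeing the data, changed no member. Of 42 other values, for bodies and summed cover, 35 stayed within those limits, and those that moved include H3K27me3 cover summed over the 9 genes, 7773 bp in Myc-ESCs as reported and 4060 bp with equal lists. The share of peaks below a score of 100 was 89.1% and 79.8% for H3K27me3 in LIF-ESCs and Myc-ESCs, 54.7% and 52.2% for Suz12, and 21.5% and 18.9% for H3K4me3, so H3K27me3 calls rest most on low scores. No paired analysis was possible because each culture and antibody has 1 list, with no values per library. Depth is unknown, and the absence of a peak does not show that a mark was absent.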
